A study of Rattus norvegicus with 8 samples.

Results

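The genes described here code for the eukaryotic translation initiation factors and the proteins that act directly on them. They were taken as every non-control probe whose gene name on the array starts with Eif and a digit from 1 to 6, which gave 72 probes of 56 genes among 30367 probes. All 56 genes passed the filter on dim probes through at least 1 probe and were tested together with the other genes, 21296 in all. 3 of the 56 names, Eif2c2, Eif2c3 and Eif2c4, are old names of Argonaute genes, whose proteins bind microRNAs and are not initiation factors. They were kept because the rule takes them, and they are described apart. Eif3s6ip and Eif2s3x are the array's names for Eif3l and Eif2s3.

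The study exposed male Sprague Dawley rats to simulated high altitude (25000 ft, 8% oxygen) in a decompression chamber and measured hippocampal RNA on Agilent arrays. Control rats were kept in normoxia, and the exposed groups were labelled day 1, day 3 and day 7, with 2 arrays in each of the 4 groups. The group titled day 7 carries an exposure of 5 days in another label field, and it is called day 7 here. No age, genotype or drug is given for any group, and nothing states that the 2 arrays of a group hold RNA of different animals or of pools, so that p-values here reflect array-to-array spread, which may be technical.

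Initiation factors place the ribosome on the start codon of an mRNA. The factor eIF2 brings the initiator tRNA to the small ribosomal subunit and leaves with GDP, which the exchange factor eIF2B replaces with GTP. 4 kinases that sense different stresses phosphorylate eIF2 and so block eIF2B, which lowers general protein synthesis and favours a few stress mRNAs. The eIF4 factors bind the cap of the mRNA and unwind it, and the 4E-binding proteins, which the kinase mTOR controls, keep the cap-binding protein eIF4E from its partner. In neurons these steps regulate synaptic plasticity and memory, and both the kinases and the 4E-binding proteins act in the response of cells to low oxygen.

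Levels are given as log2 of the processed spot signal minus the 75th percentile of its array, so that 0 is the signal that 75% of probes do not exceed, and a change of 1 is a 2-fold change in signal. Probes differ in brightness for the same amount of RNA, so levels of different probes were not read as amounts of RNA and served only to sort genes and probe pairs by signal. In bulk tissue such as this, a change in the number of cells of a type and a change in the RNA of each cell cannot be told apart. A gene was called when limma's moderated test gave a Benjamini-Hochberg adjusted p under 0.05 over all 21296 genes. The members' median difference between the arrays of a group was 0.05 in normoxia, 0.03 on day 1, 0.04 on day 3 and 0.07 on day 7.

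The initiation factor genes moved little on day 1 and more on days 3 and 7, with more rises than falls on the later days. On day 1, 9 genes were higher than in normoxia, 11 were lower and 36 were not called (16.1% and 19.6% of the members, beside 15.3% and 20.2% of all genes). On day 3, 23 were higher, 10 lower and 23 not called (41.1% and 17.9%, beside 24.2% and 26.2% of all genes). On day 7, 31 were higher, 12 lower and 13 not called (55.4% and 21.4%, beside 31.5% and 29.7% of all genes). The members' median change was -0.02, 0.10 and 0.19 on the 3 days, and that of all genes was -0.07, -0.05 and -0.03. The day 1 counts stood near the background of all genes. The 3 comparisons share the normoxia arrays.

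The changes were small. No member rose 2-fold on day 7, where 1.91% of all genes were called higher by at least 2-fold, and 3 members fell at least 2-fold, where 9.45% of all genes did. These were Eif2b1, Eif2b4 and Eif3s6ip, while Eif2c3 changed by -1.15 (adjusted p = 0.0743) and was not called. Eif2c3 passed the filter on dim probes only through the normoxia arrays, where its mean was highest. That filter favours a fall, so its change is not read as one. With normexp background correction Eif2c3 was instead called higher. The same 3 genes were lower by at least 2-fold on day 7 than on day 1, where 8.97% of all genes were, and 0 members were higher by as much, beside 2.47%. Without the Argonaute names, 9 genes were higher and 11 lower on day 1, 23 and 9 on day 3, then 30 and 11 on day 7.

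**Figure D1:**
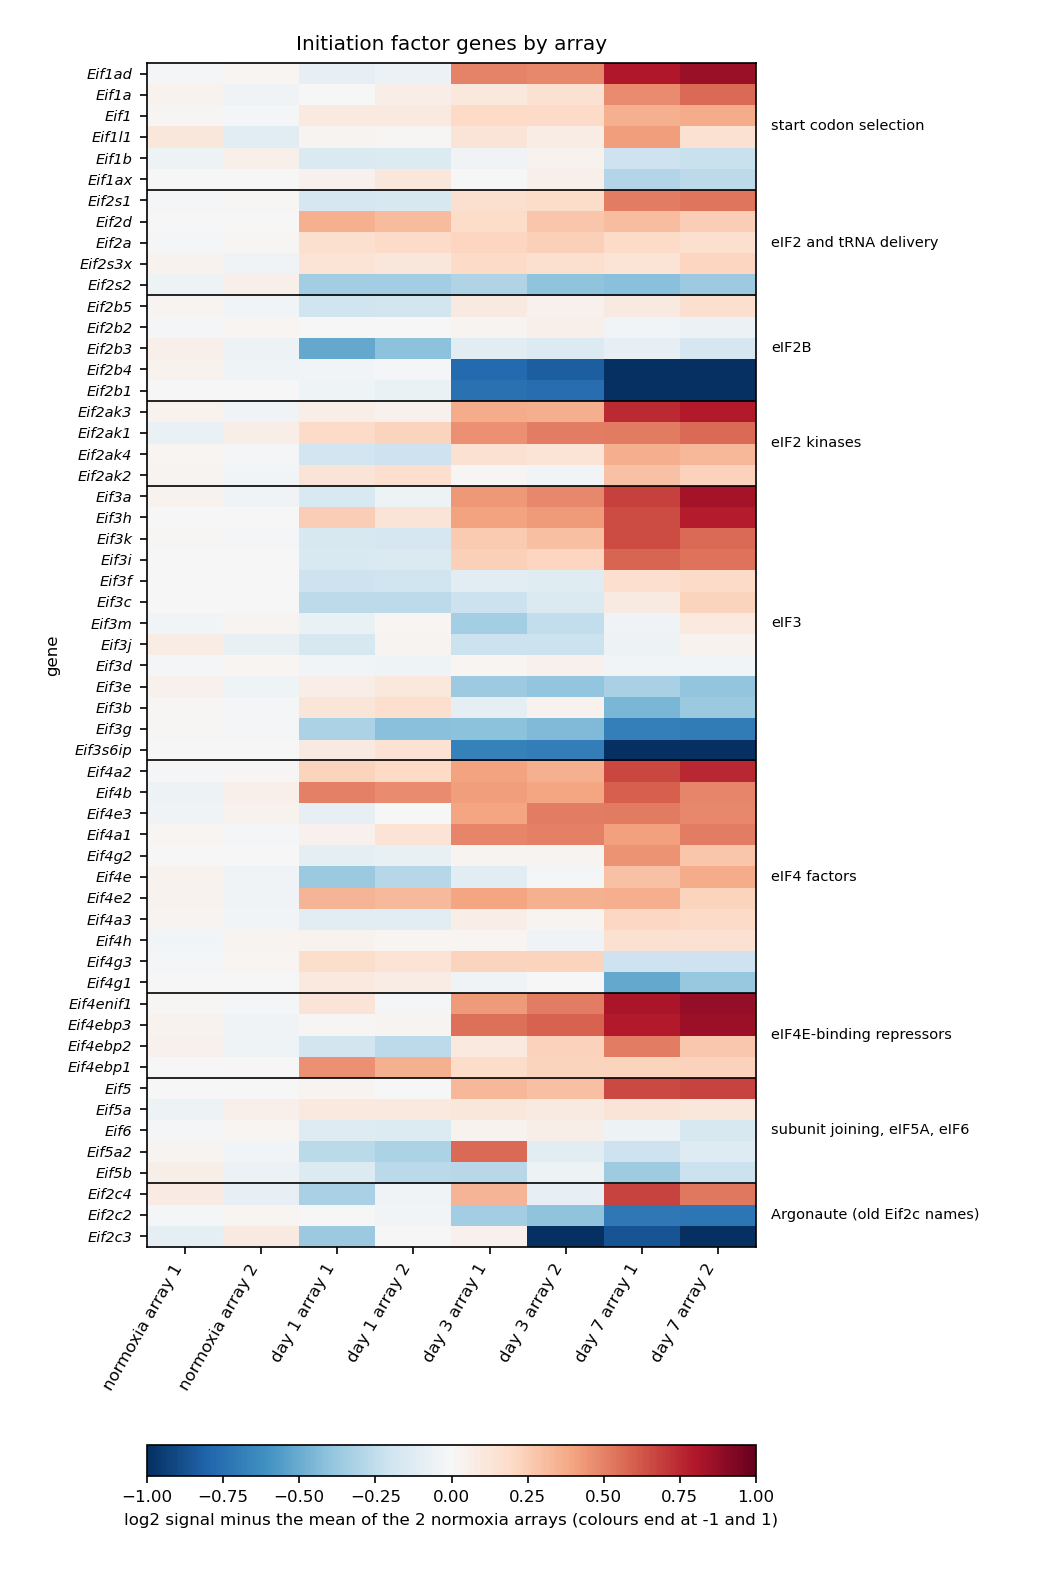
Log2 signal of each of the 56 member genes (vertical axis, grouped by role) on each of the 8 arrays (horizontal axis), minus the gene's mean over the 2 normoxia arrays, with colours ending at -1 and 1. The day 1 columns are paler than those of day 7, and Eif3s6ip, Eif2b1 and Eif2b4 are called genes in dark blue on day 7, with changes of -1.18, -1.09 and -1.08, beside Eif2c3, not called, with -1.15. The direction of Eif2c3 was the opposite with normexp background correction, and it passed the filter on dim probes only through normoxia, its highest group.

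**Figure D2:**
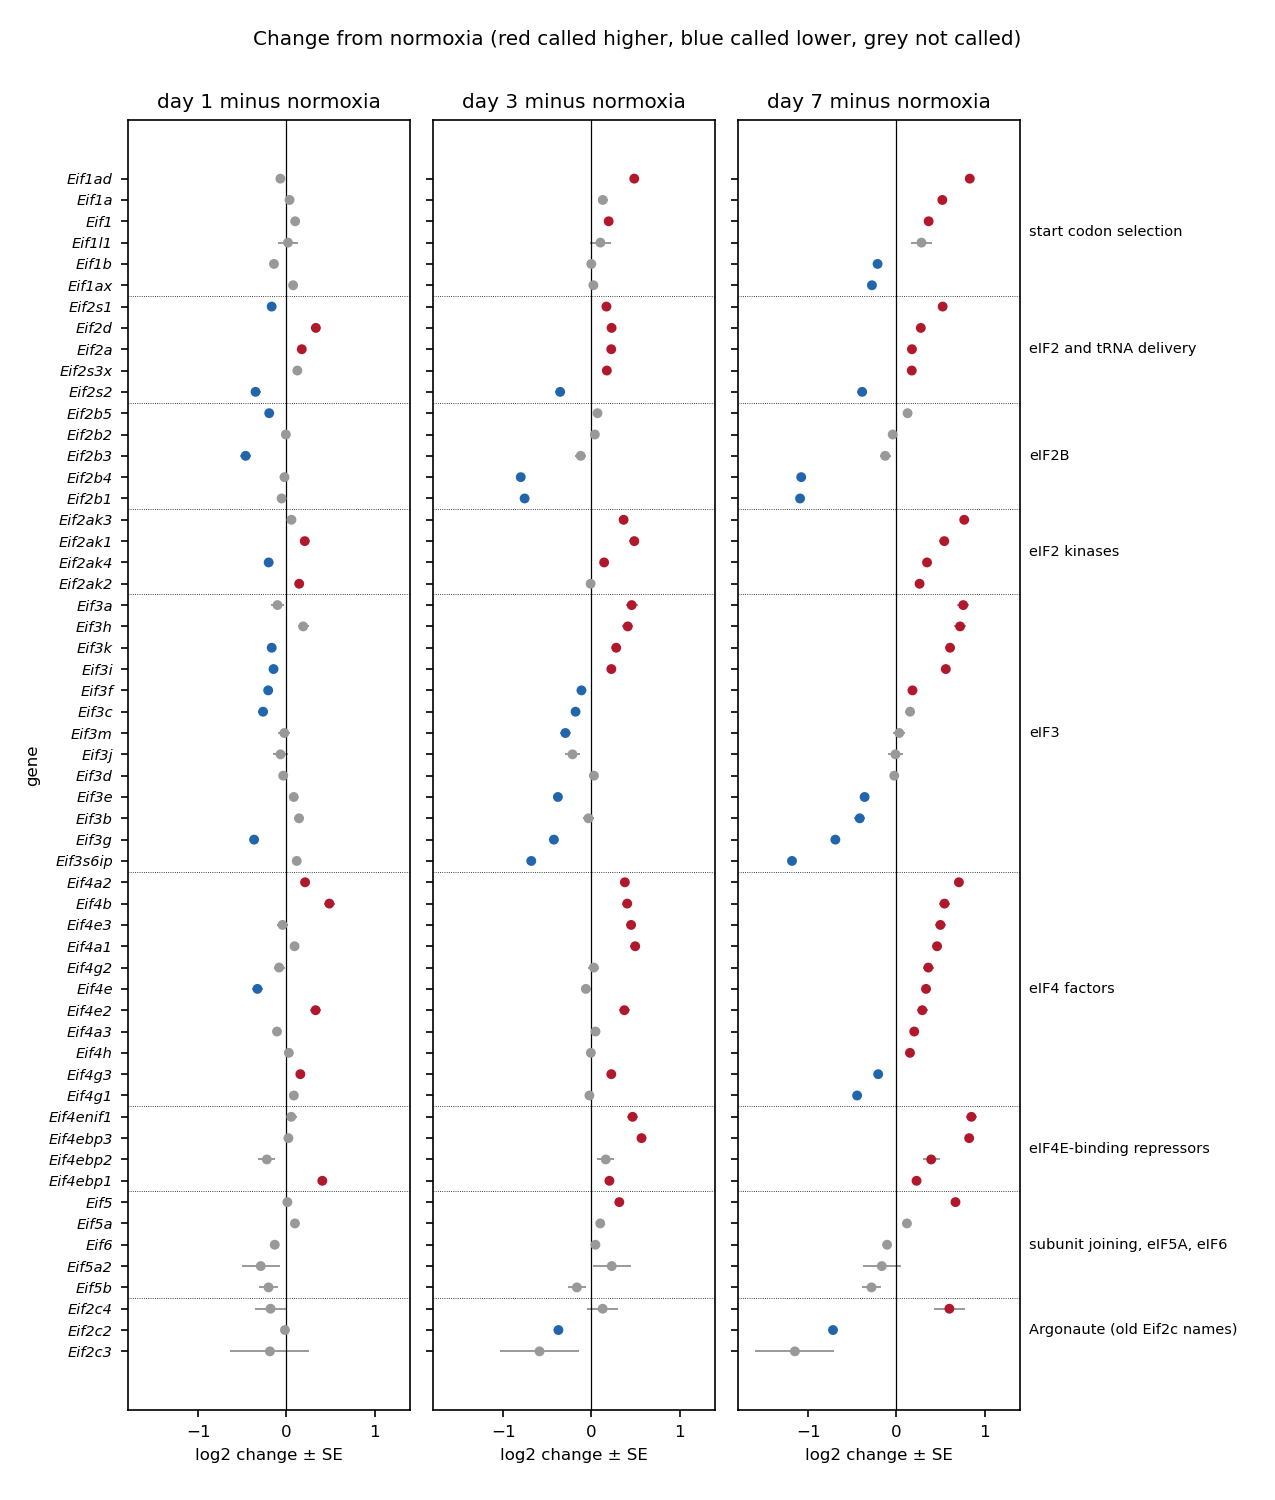
Log2 change of each member gene (points, with 1 SE as bars) on each day against normoxia, grouped by role, with genes called higher in red, called lower in blue and not called in grey. On day 7 all 4 eIF2 kinases and all 4 repressors of eIF4E lie above 0, and the eIF3 subunits lie on both sides of it.

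The split between rises and falls depended on how the arrays were scaled. The 75th percentile of the signal was 2321 to 2684 on the normoxia arrays, 2214 to 2247 on day 1, 1566 to 1710 on day 3 and 1393 to 1407 on day 7. Quantile normalization gave 25 members higher and 17 lower on day 7, and cyclic loess 24 and 18, with member medians of 0.06 and 0.03. Of all genes 31.5% were higher and 25.8% lower with quantile normalization, with a median of 0.05. With loess it was 29.9% and 28.4%, with a median of 0.005. Higher calls made up 59.5% and 57.1% of the members' calls, beside 55.0% and 51.3% of all calls. Median centring gave 40 and 5 with a member median of 0.49, where 47.5% of all genes were higher and 17.5% lower. It moved the median of all genes to 0.26. With normexp background correction, which put that median at 0.22, 27 members were higher and 12 lower, with a member median of 0.18. Of all genes 48.3% were higher and 19.2% lower under normexp. There 69.2% of the members' calls were higher, near the share of all calls given next. The share of all called genes that were higher on day 7 was 51.5% as reported, 73.1% with median centring and 71.5% with normexp. On day 3 it was 48.0%, and 66.7% and 67.9% under the same alternatives. There 17 members were higher and 11 lower with quantile normalization, beside 24.2% and 23.0% of all genes. With median centring 35 and 7 were, beside 35.6% and 17.8%. On day 1 the share of all called genes that were higher was 43.1%, and 57.2% once each array's trend with probe GC content was removed. With that trend removed 14 members were higher and 6 lower, beside 19.9% and 14.8% of all genes.

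**Figure D3:**
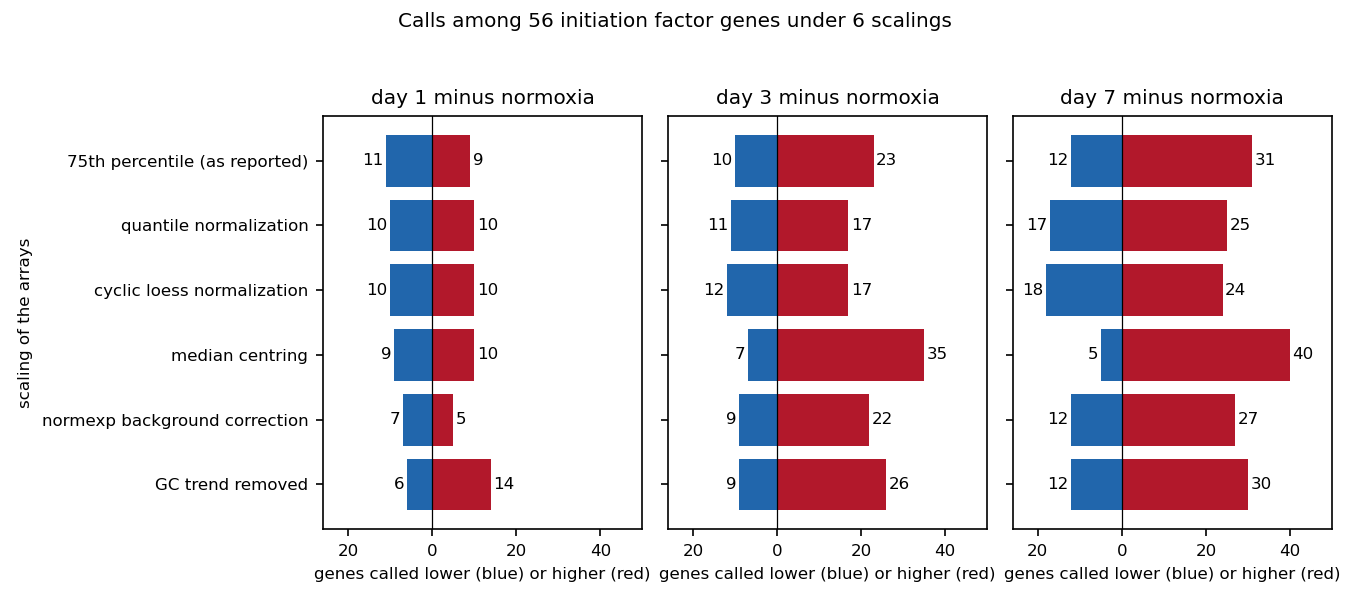
Number of member genes called higher and lower (bars, counts of 56 genes) against normoxia under 6 ways of scaling the arrays. On day 7 the higher bar exceeds the lower one under each of them, from 24 against 18 with cyclic loess to 40 against 5 with median centring. Higher calls also exceeded lower ones among all genes under each scaling, from 51.3% of calls with cyclic loess to 73.1% with median centring.

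Bright genes as a class ran higher on day 7. In the brightest of 10 equal bins of all genes by mean signal, 72.3% were called higher on day 7 and 9.1% lower, with a median change of 0.36. 16 members belong to that bin, and 12 of them were higher and 0 lower in limma's test, with a median change of 0.45. Among the other 40 members 19 were higher and 12 lower with a median of 0.08. Over the 56 members the day 7 change had a Spearman correlation of 0.32 with mean signal and of -0.16 with the GC content of the probe, and all points share the same 4 arrays. The part of signal level in the members' rises was not tested.

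The position of the probe in the transcript moved with the result as well. For 12 member genes the array holds kept probes at 2 or more places on its rn4 map. The probe nearer the 3′ end changed more positively on day 7 in 10 of the 12 (83.3%), and in 76.3% of the 2812 genes of the whole array with such a pair. The median gap between the changes of the 2 probes was 0.40 for the members and 0.44 for all pairs. On day 3 it was 8 of 12, beside 72.4%, and on day 1 6 of 12, beside 48.5%. The log2 signal of the 3′ probe minus that of its 5′ partner, which is compared here between arrays, had a median over the 2812 genes of 2.19 and 2.17 on the normoxia arrays, 2.43 on both day 3 arrays, and 2.58 and 2.67 on day 7. Among the 527 genes whose 3′ probe is the dimmer one, 49.5% had the more positive 3′ change on day 7. The RNA was labelled from oligo dT primers, and the part of probe position in the members' changes was not tested.

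**Figure D4:**
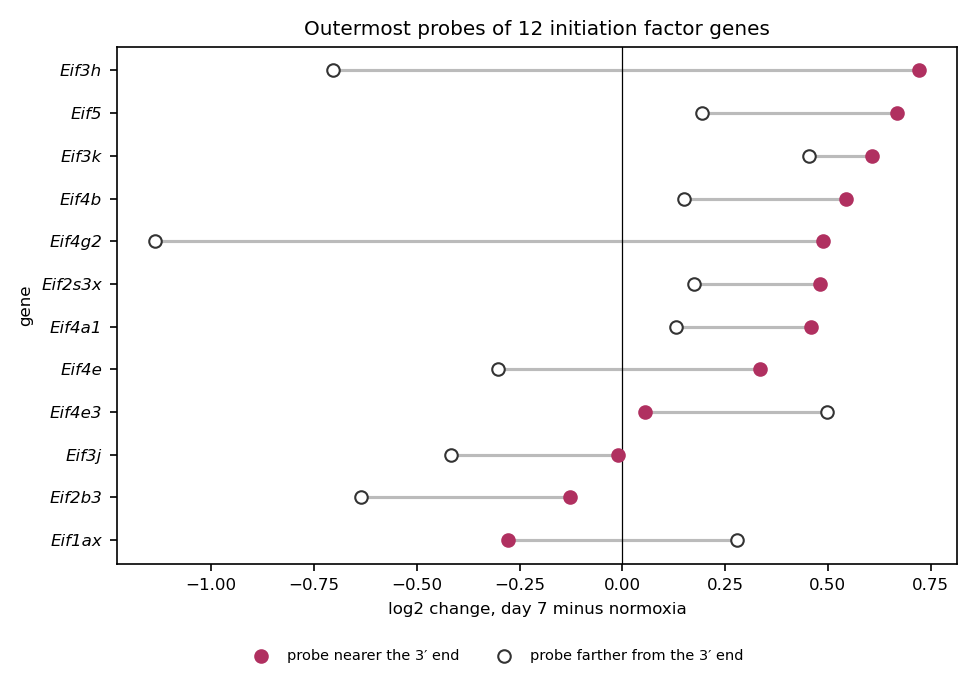
Log2 change on day 7 against normoxia of the 3′ and the 5′ probe of the 12 member genes with a mapped pair. The 3′ probe lies higher in 10 genes, and for Eif3h, Eif4g2, Eif4e and Eif1ax the probes lie on opposite sides of 0.

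The direction differed between transcript ends for several members. The probes of Eif4e and Eif3h are shown, as the first 30 of 60 bases from the array's annotation, because these genes have opposite values at their ends. All letters are in lower case, since no base is singled out, and positions are on rn4.
Eif4e 3′ probe, chr2:236104430-236104489: gttgcagtatggttctctgtaaacttgaaa
Eif4e 5′ probe, chr2:236102952-236103011: tcccacgcagacacagctacaaagagcggc
Eif3h 3′ probe, chr7:88069668-88069727: gcactgtgctgttagtgctgtaatggcttt
Eif3h middle probe, chr7:88072316-88074137: aaataccacacatacatgaggaatagcagc
Eif3h 5′ probe, chr7:88130379-88154135: cggcctggtagtattaaagataatcaaaca
The middle and 5′ probes of Eif3h span more than their 60 bases on the map. On day 7 the 3′ probe of Eif3h changed by 0.72 and the middle probe by 0.49, while the 5′ probe, 60711 bases away, changed by -0.70. For Eif4e, whose probes lie 1478 bases apart, the 3′ probe changed by -0.33 on day 1 and 0.34 on day 7, and the 5′ probe by 0.27 and -0.30. Eif4g2 had 0.49 at its 3′ probe and -1.14 at its 5′ probe on day 7. Each of these values had an adjusted p under 0.05 in limma's fit over all probes.

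The tissue label was checked against marker lists, as summed linear signal relative to the 75th percentile. The 16 hippocampal genes summed to 82.1 to 82.9 in normoxia, 81.0 to 83.6 on day 1, 108 on day 3 and 104 to 112 on day 7, and 13 to 16 of them were well above background on each array. Prox1, a granule cell marker, was not well above background on any day 1 or day 7 array. Markers of choroid plexus, the tissue that secretes cerebrospinal fluid, summed to 128 to 139 in normoxia, 5.31 to 5.41 on day 1, 170 to 182 on day 3 and 14.8 to 15.4 on day 7. Striatal markers summed to 106 to 107 on day 1 and 21.8 to 25.1 in the other groups, and 18 of 18 were higher on day 1. Red blood cell genes rose from 164 to 180 in normoxia to 290 to 299, 444 to 471 and 550 to 563 on the 3 days. Midbrain dopamine genes summed to 13.9 to 14.9 in normoxia and 7.69 to 11.4 later, microglia genes to 31.9 to 40.3 and oligodendrocyte genes to 183 to 244 over all arrays. Neuron genes lay between 120 and 138, and astrocyte genes lay between 119 and 131 except on day 7, at 155 to 159. Such sums follow the brightest genes of a list, and counts of called genes differed from them. On day 7, 4 of 13 tested neuron genes were higher and 8 lower, with a median change of -0.30, and 3 of 10 oligodendrocyte genes were higher and 6 lower, with a median of -0.27. On day 1, 3 of the 16 hippocampal genes were higher and 7 lower, with a median of -0.21. The part of these cell types in the members' changes was not tested.

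All arrays lay on 1 slide, with normoxia and day 1 in one row and day 3 and day 7 in the other. The changes of days 3 and 7 against normoxia or against day 1 and the slide row cannot be told apart. Day 1 against normoxia and day 7 against day 3 are comparisons within a row. From day 3 to day 7, 22 members rose and 10 fell (39.3% and 17.9%, beside 24.2% and 18.3% of all genes), with a median of 0.06 beside 0.05. From day 1 to day 3, 21 rose and 8 fell (37.5% and 14.3%, beside 28.2% and 23.0%), with a median of 0.09 beside 0.03. From day 1 to day 7, 27 rose and 11 fell (48.2% and 19.6%, beside 35.8% and 26.5%). With cyclic loess the count was 15 higher and 13 lower from day 3 to day 7, and with median centring 32 and 7. The shares of all genes were 18.9% and 18.4% with loess, and 39.5% and 11.7% with median centring. Of all genes called from day 3 to day 7, 57.0% were higher, and 77.2% with median centring.

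The groups of members are described next by their counts, to be read beside the shares of all genes given above, 15.3% higher and 20.2% lower on day 1, 24.2% and 26.2% on day 3, then 31.5% and 29.7% on day 7.

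The 4 kinases of eIF2 were each higher on day 7 than in normoxia, by 1.20 to 1.70-fold. This count of 4 higher and 0 lower was the same under all 6 scalings. On day 3, 3 of them were higher, and on day 1, 2 were higher and 1 lower. Eif2ak3 codes for PERK, which senses unfolded protein in the endoplasmic reticulum. It stood at -0.87 and -0.95 on the normoxia arrays, -0.84 and -0.86 on those of day 1, -0.54 and -0.55 on those of day 3 and -0.16 and -0.12 on those of day 7. Day 1 was not called against normoxia, and each group lay above the one before without overlap. The change was 0.06 (adjusted p = 0.336) on day 1, 0.36 (SE 0.04, adjusted p = 0.00161) on day 3 and 0.77 (SE 0.04, adjusted p = 0.0001) on day 7, or 1.70-fold. From day 3 to day 7 it rose by a further 0.40 (SE 0.04, adjusted p = 0.00189).

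Eif2ak1, the haem-regulated kinase HRI that also relays mitochondrial stress, stood at 2.85 and 2.98 in normoxia, 3.11 and 3.14 at day 1, 3.37 and 3.43 at day 3, and 3.43 and 3.48 at day 7. It rose mainly between normoxia and day 3. The change was 0.21 (adjusted p = 0.0408), 0.49 (adjusted p = 0.00179) and 0.54 (adjusted p = 0.000735) on the 3 days, and 0.06 (adjusted p = 0.476) from day 3 to day 7. Eif2ak4 codes for GCN2, which senses a lack of amino acids, and its level was -0.00 and -0.03 on the normoxia arrays, -0.21 and -0.23 on those of day 1, 0.13 and 0.12 on those of day 3 and 0.35 and 0.31 on those of day 7. It was below normoxia on day 1 and above it afterwards, with no overlap of arrays. Its changes were -0.20 (adjusted p = 0.0101), 0.14 (adjusted p = 0.02) and 0.35 (adjusted p = 0.000627). The day 1 calls of Eif2ak1 and Eif2ak4 and the day 3 call of Eif2ak4 were lost when single arrays were left out, Eif2ak1 without any 1 of 7 arrays and Eif2ak4 without any 1 of 3 on each day.

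Eif2ak2 codes for PKR, an interferon-induced kinase that binds double-stranded RNA. Its level was -1.47 and -1.52 in normoxia, -1.37 and -1.33 at day 1, -1.48 and -1.52 at day 3, and -1.20 and -1.26 at day 7. The day 7 arrays lay above all others, with 0.26 (adjusted p = 0.00369) against normoxia and 0.27 (adjusted p = 0.0062) against day 3. The day 1 change of 0.15 (adjusted p = 0.0497) was lost without any 1 of the 8 arrays, and the day 3 change was -0.01 (adjusted p = 0.877). A second, dimmer probe of this gene changed by -1.30 on day 7, and the mean of both probes gave -0.52 there.

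The subunits of eIF2 and the other proteins that deliver tRNA moved in both directions. Of 5 genes, 2 were higher and 2 lower on day 1, and 4 were higher and 1 lower on days 3 and 7. The day 3 split was 2 and 1 with quantile and loess normalization. The day 7 split was 3 and 1 with those, 4 and 0 with median centring, and 2 and 1 with normexp and with the GC trend removed. Eif2s1 codes for the alpha subunit that the 4 kinases phosphorylate. It stood at 2.80 and 2.82 on the normoxia arrays, 2.64 and 2.65 on those of day 1, 2.97 and 3.00 on those of day 3 and 3.33 and 3.35 on those of day 7. The 2 day 1 arrays were the lowest of the 8 and the 2 day 7 arrays the highest. Its changes were -0.17 (adjusted p = 0.0147), 0.17 (adjusted p = 0.00918) and 0.52 (SE 0.03, adjusted p = 0.000143), the last a 1.44-fold rise. The day 1 call was lost without any 1 of the 4 arrays compared and the day 3 call without the second day 3 array and under quantile normalization, cyclic loess and removal of the GC trend.

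Eif2s2, the beta subunit, went the other way. Its level was 0.15 and 0.25 in normoxia, -0.15 and -0.15 at day 1, -0.10 and -0.20 at day 3, and -0.21 and -0.16 at day 7. All 6 hypoxia arrays lay below both normoxia arrays and did not separate by day. The changes were -0.35 (adjusted p = 0.00811), -0.35 (adjusted p = 0.00493) and -0.39 (adjusted p = 0.00241), and the day 7 call was lost with median centring. Eif2s3x, the gamma subunit, changed by 0.12 (adjusted p = 0.0948), 0.17 (adjusted p = 0.0269) and 0.17 (adjusted p = 0.0224). Its calls on days 3 and 7 were lost with quantile and loess normalization, and that of day 7 also with normexp and with the GC trend removed. Its other probe changed by 0.14 (adjusted p = 0.228) on day 3 and 0.48 (adjusted p = 0.00506) on day 7. Eif2d, which can bring tRNA to the ribosome without GTP, stood at 0.27 and 0.28 on the normoxia arrays, 0.63 and 0.59 on those of day 1, 0.45 and 0.55 on those of day 3 and 0.58 and 0.52 on those of day 7. It was higher in all 3 hypoxia groups, by 0.33 (adjusted p = 0.00562), 0.23 (adjusted p = 0.0125) and 0.28 (adjusted p = 0.00469), although the day 3 call was lost without any 1 of 3 arrays. Eif2a, a separate factor that also binds initiator tRNA, was higher by 0.17, 0.22 and 0.18 on the 3 days, and its day 1 call was lost without any 1 of the 4 arrays compared. The day 7 call of Eif2d was lost with normexp and that of Eif2a with the GC trend removed.

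2 of the 5 subunits of eIF2B had falls among the largest of all members, and the catalytic subunit was not called on days 3 and 7. Eif2b4 codes for the delta subunit and Eif2b1 for the alpha subunit, both in the regulatory part of the complex that binds phosphorylated eIF2. Eif2b4 stood at -0.82 and -0.88 on the normoxia arrays, -0.88 and -0.87 on those of day 1, -1.63 and -1.67 on those of day 3 and -1.91 and -1.95 on those of day 7. Eif2b1 stood at -2.12 and -2.11 in normoxia, -2.16 and -2.18 at day 1, -2.86 and -2.88 at day 3, and -3.20 and -3.21 at day 7. In both genes the normoxia and day 1 arrays lay together, the day 3 arrays lay below them, and the day 7 arrays lay lower again.

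Eif2b4 changed by -0.02 (adjusted p = 0.727) on day 1, -0.80 (SE 0.04, adjusted p = 0.000222) on day 3 and -1.08 (SE 0.04, adjusted p = 4.99e-05) on day 7, a 2.11-fold fall. Eif2b1 changed by -0.05 (adjusted p = 0.242), -0.76 (SE 0.03, adjusted p = 0.000131) and -1.09 (SE 0.03, adjusted p = 3.24e-05), a 2.13-fold fall. Within the slide row, from day 3 to day 7, the changes were -0.28 (adjusted p = 0.00551) and -0.34 (adjusted p = 0.00153). The calls of both genes on days 3 and 7 held without each array in turn and under each scaling.

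The other 3 subunits were not called on days 3 and 7 at the probes that represent them, although a second probe of Eif2b3 fell. Eif2b5, the catalytic epsilon subunit, stood at 0.07 and 0.01 on the normoxia arrays, -0.17 and -0.15 on those of day 1, 0.13 and 0.08 on those of day 3 and 0.13 and 0.20 on those of day 7. It was lowest on day 1, with -0.19 (adjusted p = 0.024), and then 0.07 (adjusted p = 0.25) and 0.13 (adjusted p = 0.0557). The day 1 call was lost without any 1 of the 4 arrays compared, and the rise from day 1 to day 3 was 0.26 (adjusted p = 0.00586). Eif2b3, the gamma subunit, stood at -0.09 and -0.20 in normoxia, -0.66 and -0.56 at day 1, -0.25 and -0.28 at day 3, and -0.23 and -0.32 at day 7. Its day 1 arrays were below the other 6, with -0.46 (SE 0.06, adjusted p = 0.00424) on day 1, -0.12 (adjusted p = 0.154) on day 3 and -0.13 (adjusted p = 0.124) on day 7. From day 1 to day 3 it rose by 0.34 (adjusted p = 0.00687), but its dimmer 5′ probe changed by -0.26 there. Against normoxia that 5′ probe changed by -0.16 (adjusted p = 0.0742) on day 1, -0.42 (adjusted p = 0.00223) on day 3 and -0.64 (adjusted p = 0.000325) on day 7 in limma's fit over all probes. Eif2b2, the beta subunit, stayed within 0.04 of normoxia on each day and was not called. With median centring, 2 of the 5 subunits were higher and 2 lower on day 7.

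**Figure D5:**
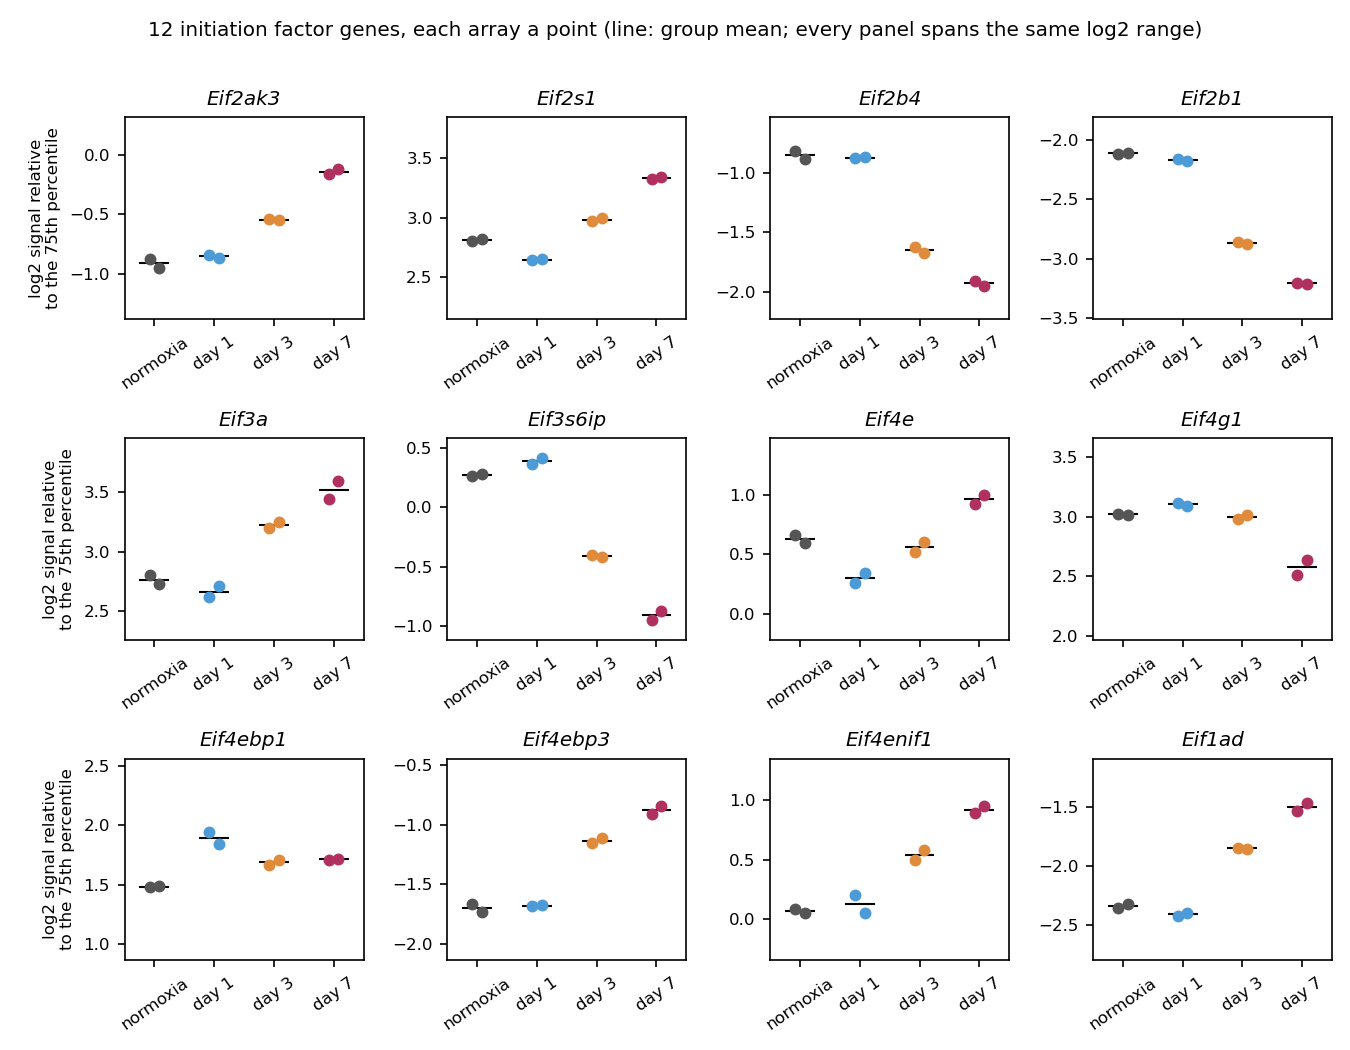
Level on each of the 8 arrays (points) for 12 member genes, as log2 signal relative to the 75th percentile, with each panel spanning the same range. Eif2b4, Eif2b1 and Eif3s6ip step down after day 1, Eif2ak3, Eif1ad, Eif4ebp3 and Eif4enif1 step up, and the 2 arrays of a group lie close together.

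The 13 subunits of eIF3, the large scaffold on the small ribosomal subunit, split in both directions. On day 1 0 were higher and 5 lower, on day 3 4 were higher and 6 lower, and on day 7 5 were higher and 4 lower by limma's test. The day 7 shares were 38.5% and 30.8%. At an unadjusted p under 0.05, 2 eIF3 genes were higher on day 1. The day 7 split was 4 and 6 with cyclic loess and 9 and 2 with median centring. Eif3s6ip, the L subunit, fell most of all members. It stood at 0.27 and 0.28 on the normoxia arrays, 0.37 and 0.42 on those of day 1, -0.40 and -0.41 on those of day 3 and -0.95 and -0.87 on those of day 7. Day 1 lay slightly above normoxia, and the later groups lay below it in steps. The changes were 0.12 (adjusted p = 0.0908), -0.68 (SE 0.04, adjusted p = 0.000325) and -1.18 (SE 0.04, adjusted p = 4.63e-05), the last a 2.27-fold fall, and -0.50 (adjusted p = 0.00124) from day 3 to day 7.

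Eif3g, an RNA-binding subunit, stood at 0.34 and 0.31 in normoxia, 0.01 and -0.09 at day 1, -0.09 and -0.12 at day 3, and -0.36 and -0.38 at day 7. It was lower on each day, by -0.37 (adjusted p = 0.00351), -0.42 (adjusted p = 0.0013) and -0.69 (adjusted p = 0.000159), and all 6 hypoxia arrays lay below normoxia. Eif3e, which links eIF3 to other complexes, stood at 1.42 and 1.34 on the normoxia arrays, 1.44 and 1.49 on those of day 1, 1.02 and 0.98 on those of day 3 and 1.06 and 0.99 on those of day 7. It was not called on day 1 (0.08 (adjusted p = 0.234)) and was lower later, by -0.38 (adjusted p = 0.00225) and -0.36 (adjusted p = 0.00171). Eif3b, a core subunit, stood at 0.58 and 0.56 in normoxia, 0.69 and 0.74 at day 1, 0.47 and 0.60 at day 3, and 0.11 and 0.20 at day 7. The day 7 arrays lay below the other 6, with -0.42 (adjusted p = 0.00225), beside 0.14 (adjusted p = 0.122) and -0.03 (adjusted p = 0.672) before. The day 7 calls of Eif3e and Eif3b were lost with median centring.

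Eif3a, the largest subunit, rose most within the complex. It stood at 2.80 and 2.73 on the normoxia arrays, 2.62 and 2.71 on those of day 1, 3.20 and 3.25 on those of day 3 and 3.45 and 3.60 on those of day 7. Day 1 lay just below normoxia, and days 3 and 7 lay above. The changes were -0.10 (adjusted p = 0.32), 0.46 (SE 0.07, adjusted p = 0.00429) and 0.76 (SE 0.07, adjusted p = 0.00047), or 1.69-fold on day 7. Eif3k, a small peripheral subunit, stood at 4.09 and 4.07 in normoxia, 3.92 and 3.91 at day 1, 4.34 and 4.38 at day 3, and 4.73 and 4.65 at day 7. It was lower on day 1 and higher later, with -0.17 (adjusted p = 0.0352), 0.28 (adjusted p = 0.00437) and 0.61 (adjusted p = 0.000205). The day 1 call was lost without any of 6 arrays and under 4 scalings, and the day 3 call under quantile and loess normalization.

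Eif3c, another core subunit, stood at 3.80 and 3.81 on the normoxia arrays, 3.54 and 3.54 on those of day 1, 3.59 and 3.66 on those of day 3 and 3.89 and 4.03 on those of day 7. It was lower by -0.26 (adjusted p = 0.0182) and -0.18 (adjusted p = 0.0439) on days 1 and 3 and not called on day 7 (0.15 (adjusted p = 0.0583)), and both calls were lost without single arrays. From day 3 to day 7 it rose by 0.33 (adjusted p = 0.00735). The remaining eIF3 genes are given to account for every member. Eif3i changed by -0.15, 0.23 and 0.56 and was called each day, Eif3h by 0.19, 0.41 and 0.72 and was called on days 3 and 7. Eif3f changed by -0.21, -0.11 and 0.18 and was called each day, with its day 3 call lost without any of 6 arrays and its day 7 call with quantile normalization, cyclic loess and normexp. The day 1 call of Eif3f was lost without the first day 1 array and that of Eif3i without any 1 of the 4 arrays compared. The day 3 calls of Eif3h and Eif3i were lost with normexp, and that of Eif3i also with quantile and loess normalization. Eif3m was lower on day 3 alone, by -0.29 (adjusted p = 0.0158), a call lost without any of 3 arrays, and Eif3d and Eif3j were not called on any day. The 5′ probe of Eif3j, which does not represent the gene, changed by -0.42 (adjusted p = 0.000638) on day 7 in limma's fit over all probes.

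Of the 11 genes with eIF4 names other than the repressors of eIF4E, 4 were higher and 1 lower on day 1, 6 and 0 on day 3, then 9 and 2 on day 7. These are 36.4% and 9.1%, 54.5% and 0.0%, then 81.8% and 18.2% of the group. The day 7 split was 6 and 3 with quantile and loess normalization and 9 and 0 with median centring. Eif4e, the cap-binding protein, is represented by its brighter 3′ probe, which stood at 0.66 and 0.59 on the normoxia arrays, 0.26 and 0.34 on those of day 1, 0.52 and 0.61 on those of day 3 and 0.92 and 1.00 on those of day 7. Day 1 lay below all other arrays and day 7 above them. The changes were -0.33 (SE 0.06, adjusted p = 0.0107), -0.06 (adjusted p = 0.409) and 0.34 (SE 0.06, adjusted p = 0.00468), with the opposite values at the 5′ probe given above. The day 1 call was lost without the first normoxia or the first day 1 array, and the day 7 call once the GC trend was removed.

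Eif4g1, the scaffold that joins eIF4E to the helicase and to eIF3, stood at 3.02 and 3.02 in normoxia, 3.12 and 3.09 at day 1, 2.98 and 3.01 at day 3, and 2.51 and 2.64 at day 7. The day 7 arrays lay below the other 6, which lay between 2.98 and 3.12. The change was 0.08 (adjusted p = 0.266) on day 1, -0.02 (adjusted p = 0.746) on day 3 and -0.45 (SE 0.05, adjusted p = 0.00108) on day 7, and -0.42 (adjusted p = 0.00305) from day 3 to day 7 within the slide row. Its relative Eif4g3 stood at 1.76 and 1.80 on the normoxia arrays, 1.96 and 1.92 on those of day 1, 2.01 and 2.01 on those of day 3 and 1.58 and 1.57 on those of day 7. It was higher on days 1 and 3, by 0.16 (adjusted p = 0.0226) and 0.23 (adjusted p = 0.00477), and lower on day 7, by -0.21 (adjusted p = 0.00459). From day 3 to day 7 it changed by -0.43 (SE 0.04, adjusted p = 0.00114). The day 7 calls of both genes were lost with median centring, where Eif4g3 stood at 0.09, and the day 1 call of Eif4g3 was lost without any 1 of the 4 arrays compared.

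The helicase genes Eif4a1 and Eif4a2, which unwind the leader of the mRNA, were higher on days 3 and 7. Eif4a2, the main form in neurons, stood at 5.19 and 5.21 in normoxia, 5.42 and 5.40 at day 1, 5.60 and 5.55 at day 3, and 5.86 and 5.95 at day 7. Each group lay above the one before it. The changes were 0.21 (adjusted p = 0.0185), 0.38 (adjusted p = 0.00184) and 0.71 (SE 0.04, adjusted p = 0.000149), with the day 1 call lost without any 1 of the 4 arrays compared. Eif4a1 stood at 2.0 and 1.96 on the normoxia arrays, 2.03 and 2.12 on those of day 1, 2.46 and 2.49 on those of day 3 and 2.39 and 2.49 on those of day 7. It rose between day 1 and day 3, by 0.40 (adjusted p = 0.00267), and did not separate between days 3 and 7, with 0.50 (adjusted p = 0.00143) and 0.46 (adjusted p = 0.0011) against normoxia. Its 5′ probe, 228 bases away, changed by 0.0034 (adjusted p = 0.969) from day 1 to day 3, and by 0.27 (adjusted p = 0.0192) on day 3 and 0.13 (adjusted p = 0.133) on day 7 against normoxia, so that the step and the day 7 call were seen at 1 probe only. The step of Eif4a2 from day 1 to day 3, 0.17 (adjusted p = 0.0278), was -0.05 with quantile and -0.08 with loess normalization.

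Eif4b, which stimulates the helicase, stood at 4.24 and 4.35 in normoxia, 4.80 and 4.76 at day 1, 4.71 and 4.69 at day 3, and 4.90 and 4.78 at day 7. It was among the few members with a rise on day 1 that held without each array and under each scaling, 0.49 (SE 0.06, adjusted p = 0.00341), and it stayed at 0.41 (adjusted p = 0.00364) and 0.54 (adjusted p = 0.000829). Its 5′ probe changed less, by 0.21 (adjusted p = 0.0124), 0.12 (adjusted p = 0.0441) and 0.15 (adjusted p = 0.019). Eif4e2, a cap-binding relative of eIF4E, stood at -1.22 and -1.29 on the normoxia arrays, -0.92 and -0.94 on those of day 1, -0.86 and -0.90 on those of day 3 and -0.89 and -1.04 on those of day 7. It was higher on each day, by 0.33 (adjusted p = 0.0111), 0.37 (adjusted p = 0.00485) and 0.29 (adjusted p = 0.00839), with the day 1 call lost without any 1 of 3 arrays. Eif4e3, a further relative, stood at -0.45 and -0.38 in normoxia, -0.50 and -0.41 at day 1, -0.02 and 0.10 at day 3, and 0.10 and 0.07 at day 7. It rose from day 1 to day 3, by 0.49 (adjusted p = 0.00187), and was 0.45 (adjusted p = 0.00263) and 0.50 (adjusted p = 0.00116) above normoxia. These are values of its 5′ probe, and its 3′ probe changed by -0.01 on day 3 and 0.05 on day 7. The other members, Eif4g2, Eif4a3 and Eif4h, were called on day 7 alone at the probes that represent them, at 0.36, 0.20 and 0.15. All 3 calls were lost with quantile normalization. In limma's fit over all probes, the 3′ probe of Eif4g2 changed by 0.23, 0.20 and 0.49 on the 3 days. Its 5′ probe changed by 0.21, -0.70 and -1.14, and each of these values had an adjusted p under 0.05.

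All 4 repressors of eIF4E were higher on day 7, and 3 of them on day 3 and 1 on day 1. Under the other scalings 3 or 4 were higher on day 7 and 0 lower. Eif4ebp1, the best studied 4E-binding protein, was the one that rose on day 1. It stood at 1.49 and 1.49 on the normoxia arrays, 1.94 and 1.85 on those of day 1, 1.67 and 1.71 on those of day 3 and 1.71 and 1.72 on those of day 7. The day 1 arrays were the highest and all 6 hypoxia arrays lay above normoxia. The changes were 0.41 (SE 0.04, adjusted p = 0.00251), 0.20 (adjusted p = 0.0146) and 0.23 (adjusted p = 0.00747), and -0.20 (adjusted p = 0.0143) from day 1 to day 3, a call lost without the first day 1 or the first day 3 array. The day 3 call was lost without any of 3 arrays, and the day 7 call with quantile and loess normalization.

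Eif4ebp3 had the larger late rise. It stood at -1.67 and -1.74 in normoxia, -1.69 and -1.67 at day 1, -1.15 and -1.11 at day 3, and -0.91 and -0.85 at day 7. The normoxia and day 1 arrays overlapped, and days 3 and 7 lay above them in order. The changes were 0.02 (adjusted p = 0.725), 0.57 (SE 0.04, adjusted p = 0.00056) and 0.82 (SE 0.04, adjusted p = 0.000101), or 1.77-fold. Eif4ebp2, the main form in brain, stood at 0.43 and 0.35 on the normoxia arrays, 0.21 and 0.13 on those of day 1, 0.49 and 0.62 on those of day 3 and 0.90 and 0.66 on those of day 7. Its day 7 arrays differed from each other by more than most members did. The change was -0.22 (adjusted p = 0.142), 0.16 (adjusted p = 0.221) and 0.39 (adjusted p = 0.0177), and the day 7 call was lost without the second normoxia or the first day 7 array. Eif4enif1 codes for the protein 4E-T, which carries eIF4E to the nucleus and to RNA granules, and stood at 0.09 and 0.06 in normoxia, 0.20 and 0.05 at day 1, 0.50 and 0.58 at day 3, and 0.89 and 0.95 at day 7. Day 1 overlapped normoxia and the later groups rose in steps. The changes were 0.06 (adjusted p = 0.546), 0.47 (SE 0.06, adjusted p = 0.00301) and 0.85 (SE 0.06, adjusted p = 0.000248), or 1.80-fold, the highest of the members on day 7.

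Among the 6 genes of start codon selection, 0 were called on day 1, 2 were higher on day 3, and 3 were higher and 2 lower on day 7. At an unadjusted p under 0.05 in limma's test, 1 was higher and 1 lower on day 1. Eif1ad, which carries a domain like that of eIF1A, stood at -2.35 and -2.32 on the normoxia arrays, -2.42 and -2.39 on those of day 1, -1.84 and -1.86 on those of day 3 and -1.54 and -1.47 on those of day 7. Day 1 lay just below normoxia, day 3 above and day 7 higher again. The changes were -0.07 (adjusted p = 0.24), 0.49 (SE 0.04, adjusted p = 0.000603) and 0.83 (SE 0.04, adjusted p = 7.52e-05), or 1.78-fold. Eif1a, a scanning factor, stood at 0.48 and 0.41 in normoxia, 0.45 and 0.51 at day 1, 0.54 and 0.60 at day 3, and 0.91 and 1.01 at day 7. It was higher on day 7 alone, by 0.52 (SE 0.05, adjusted p = 0.000719), beside 0.04 (adjusted p = 0.645) and 0.13 (adjusted p = 0.104).

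The remaining genes of the group are named to account for every member. Eif1, which keeps the ribosome from starting at wrong codons, was higher by 0.20 on day 3 and 0.37 on day 7, both calls lost with cyclic loess. Eif1ax was lower on day 7 by -0.28 (adjusted p = 0.00289), while its 5′ probe changed by 0.28 with an adjusted p of 0.267. Eif1b was lower by -0.21 (adjusted p = 0.0125), a call lost without the second normoxia or the second day 7 array, and both falls were lost with median centring. Eif1l1 was not called on any day.

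The 5 genes of subunit joining and of eIF5A had 0 called on day 1 by limma's adjusted test (1 at an unadjusted p under 0.05) and 1 on each later day. With median centring 3 were higher on days 3 and 7, and with the GC trend removed 3 were higher on day 3, then 3 higher and 1 lower on day 7. With quantile and with loess normalization 1 was higher and 2 lower on day 7. The gene called under the reported scaling was Eif5, which makes eIF2 hydrolyse its GTP, at 0.01, 0.32 (adjusted p = 0.00137) and 0.67 (adjusted p = 8.77e-05), with the day 3 call lost under quantile normalization. The 5′ probe of Eif5 changed by 0.19 (adjusted p = 0.00641) on day 7. Eif5a, the factor that carries hypusine and relieves stalled ribosomes, stood at 3.03 and 3.12 on the normoxia arrays, 3.18 and 3.17 on those of day 1, 3.19 and 3.16 on those of day 3 and 3.20 and 3.19 on those of day 7. The first normoxia array was the lowest, and the 6 hypoxia arrays lay within 0.04 of each other. The changes were 0.10 (adjusted p = 0.144), 0.10 (adjusted p = 0.11) and 0.12 (adjusted p = 0.0608), and on day 7 the value was -0.13 with quantile and -0.14 with loess normalization. Eif6, which keeps the large ribosomal subunit from joining too early, stood at 2.74 and 2.78 in normoxia, 2.63 and 2.63 at day 1, 2.79 and 2.82 at day 3, and 2.71 and 2.60 at day 7. Its changes were -0.13 (adjusted p = 0.0891), 0.05 (adjusted p = 0.471) and -0.11 (adjusted p = 0.11), and the day 7 value was 0.19 with median centring. Eif5b and Eif5a2 were not called on any day.

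Of the 3 Argonaute genes, 0 were called on day 1 by limma's adjusted test, nor at an unadjusted p under 0.05 (0 of 3), 1 was lower on day 3, and on day 7 1 was higher and 1 lower. Eif2c2, now Ago2, the Argonaute that can cut its target RNA, stood at -1.82 and -1.79 on the normoxia arrays, -1.81 and -1.84 on those of day 1, -2.15 and -2.21 on those of day 3 and -2.52 and -2.53 on those of day 7. The day 3 and day 7 arrays lay below the other 4 in steps. The changes were -0.02 (adjusted p = 0.777), -0.37 (adjusted p = 0.00118) and -0.72 (SE 0.04, adjusted p = 9.79e-05), a 1.65-fold fall. Eif2c4 was higher on day 7 by 0.60 (adjusted p = 0.0312), a call lost without any 1 of the 4 arrays compared, and Eif2c3, dim and variable, was not called on any day. With normexp background correction 2 of the 3 genes were higher and 1 lower on days 3 and 7. Eif2c3 was among those higher there.

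The promoters were read for short motifs, since several groups moved together. RefSeq (GRCr8) gave 52 promoters of 49 member genes, each of 250 bases before and 50 after the start. The core of the hypoxia response element, ACGTG on either strand, lay in 25 of the 52 (48.1%, beside 19.3% of 33469 promoters). CACGTG, which contains ACGTG, lay in 9 (17.3%, beside 6.42%). GAAANNGAA, as in interferon response elements, lay in 11 (21.2%, beside 9.71%), and TGATGNAA, as in elements bound by ATF4 with C/EBP, in 3 (5.77%, beside 3.98%). The base composition of the promoters was not matched between these shares. ACGTG did not separate the members by change on day 7, with 13 of 26 genes that rose, 5 of 10 that fell and 7 of 13 not called.

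4 windows of 150 bases are shown to set a gene that rose beside one that fell with the same motif, and to show the PKR and eIF4E genes. Capitals mark the motif, which in Eif1ad and Eif2b4 reads CACGT, the other strand of ACGTG. All windows are on the plus strand of GRCr8.
Eif1ad, chr1:212103565-212103714, ACGTG at -107: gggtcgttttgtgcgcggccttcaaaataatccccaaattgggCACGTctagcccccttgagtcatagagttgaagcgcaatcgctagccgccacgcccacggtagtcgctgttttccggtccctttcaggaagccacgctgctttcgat
Eif2b4, chr6:30903089-30903238, ACGTG at -111: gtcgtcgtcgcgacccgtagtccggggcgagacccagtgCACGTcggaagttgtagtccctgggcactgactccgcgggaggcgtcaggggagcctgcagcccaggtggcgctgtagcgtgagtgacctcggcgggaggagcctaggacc
Eif2ak2, chr6:21941004-21941153, GAAANNGAA at -16: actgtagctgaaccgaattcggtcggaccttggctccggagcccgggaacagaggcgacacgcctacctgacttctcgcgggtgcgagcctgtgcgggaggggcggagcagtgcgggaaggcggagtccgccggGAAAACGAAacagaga
Eif4e, chr2:229740603-229740752, CACGTG at -80: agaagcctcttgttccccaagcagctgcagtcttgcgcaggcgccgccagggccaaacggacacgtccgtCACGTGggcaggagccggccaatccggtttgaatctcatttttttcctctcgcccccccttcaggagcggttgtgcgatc
Positions count from the start site. On day 7 Eif1ad had changed by 0.83 and Eif2b4 by -1.08, and a match to these letters is a description of the sequence only.

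Genes around the initiation factors were read from lists of the same pathway, with changes on days 1, 3 and 7 in that order. Their counts are to be read beside the shares of all genes called higher and lower. These were 15.3% and 20.2% on day 1, 24.2% and 26.2% on day 3, then 31.5% and 29.7% on day 7. Of 31 targets of the integrated stress response, the programme that phosphorylated eIF2 starts, 5 were higher and 13 lower on day 1, 9 and 9 on day 3, then 10 and 13 on day 7. Atf4, its main transcription factor, changed by -0.16, 0.19 and 0.36 and was called on each day. Ddit3, the factor CHOP, changed by -0.08, 0.43 and 0.56 and was called on days 3 and 7. Mthfd2, a mitochondrial folate enzyme, changed by -0.20, 0.83 and 1.17, and Cebpb, a partner of ATF4, by 0.23, 0.75 and 1.19, all called. Sars, a tRNA synthetase, changed by -0.15, -0.42 and -0.67, all called, and the cystine transporter Slc7a11 by -0.79, -0.36 and -0.07, called on days 1 and 3. The list did not move in 1 direction. The shares higher and lower were 16.1% and 41.9% on day 1, 29.0% and 29.0% on day 3, then 32.3% and 41.9% on day 7, and the share that rose on day 7 stood near the 31.5% of all genes.

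Of 27 tested genes of the mTOR and MNK pathways, which act on the 4E-binding proteins and eIF4E, 5 were higher and 3 lower on day 1, 8 and 9 on day 3, then 11 and 7 on day 7. Mtor, the kinase itself, changed by -0.05, -0.41 and -0.73 and was called on days 3 and 7. Akt1, which activates it, changed by 0.37, -0.51 and -1.17, called each day, and Rraga, which recruits it to the lysosome, by -0.06, -0.27 and -0.86, called on days 3 and 7. Ddit4, an inhibitor induced by hypoxia, changed by 0.22, -0.03 and -0.55 and was called on days 1 and 7, and its relative Ddit4l changed by -0.45, 0.97 and 0.53, called each day. Other genes of the list rose. Rps6kb2, Rps6kb1 and Lamtor2, named here after their values were seen, were higher by 0.81, 0.44 and 0.55 on day 3 and by 0.87, 0.61 and 0.58 on day 7, all called. The list held 29.6% higher and 33.3% lower genes on day 3, then 40.7% and 25.9% on day 7, and did not move in 1 direction.

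Among 16 tested mRNA-binding partners of the factors, 4 were higher and 2 lower on day 1, 7 and 4 on day 3, then 9 and 4 on day 7, with 56.2% higher. Cyfip2, a partner of the fragile X protein, changed by 0.30, 0.36 and 0.86, all called. Mcts1, which works with DENR in reinitiation, changed by -0.14, 0.33 and 0.75, and Larp1, which binds mRNAs of the translation machinery, by 0.10, 0.26 and 0.58, both called on days 3 and 7. Ddx3x, a helicase, changed by -0.17, 0.08 and 0.65, called on day 7. Among 13 genes of elongation and termination, 2 were higher and 3 lower on day 1, 3 and 5 on day 3, then 5 and 5 on day 7 (38.5% each). Eef2, which moves the ribosome along, changed by 0.31, -0.73 and -1.22, and its kinase Eef2k by 0.39, -0.67 and -1.38, called each day. Eef1a2, the neuronal tRNA carrier, changed by -0.47, -0.52 and -0.46, called each day, and Abcf3 by -0.01, -0.76 and -1.62, called on days 3 and 7.

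A list of 10 genes covers those that make, break down or regulate polyamines and those that make the hypusine of eIF5A. Of these, 3 were higher and 2 lower on day 1, 3 and 3 on day 3, then 6 and 2 on day 7. Sat1, which breaks polyamines down, changed by 1.02, 0.95 and 1.18, and Amd1, which helps make them, by 0.17, 0.42 and 0.57, called each day. Oaz2, an inhibitor of polyamine synthesis, changed by 0.16, 0.44 and -0.06, called on days 1 and 3, and Dohh, which completes hypusine, by -0.03, -0.02 and 0.36, called on day 7. Eif5a itself was not called on any day.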

How the data were processed

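Total RNA of rat hippocampus was labelled with Cy3 and hybridised to Agilent rat arrays (design 028279), 1 array per sample and 2 per group. Per the file headers, the deposited scanner output holds spot intensity processed by Agilent Feature Extraction 11.5.1.1 (background subtracted, detrended, not scaled between arrays) and annotation on rn4. The deposited series values are log2; the authors' scaling is not stated, and 96.7% to 97.4% of values lay within 0.05 of log2 intensity minus the array's 75th percentile after 1 constant per array, with column medians of -3.53 to -3.23. They served as an alternative.

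Control spots and the 0.84% of spots marked as outliers were left out, and log2 values of a probe's spots were averaged. Each array's 75th percentile was subtracted. Probes marked well above background on each array of any 1 group were kept (24678 of 30346 complete probes, 71 of 72 member probes, none saturated), and the brightest kept probe on average stood for its gene. limma 3.58.1 in R 4.3.3 (lmFit, eBayes) fitted 1 mean per group over 8 arrays, with 4 residual and 1.22 prior degrees of freedom, a median residual SD of 0.074, two-sided tests, and p-values adjusted by Benjamini-Hochberg over 21296 genes in each of 6 comparisons. The fit was tested on simulated data. The number of arrays limits the precision. Tables and plots used the data.table package (1.17.8), Python 3.11.15, pandas 2.3.3, numpy 2.4.6 and matplotlib 3.10.9.

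Symbols of 54 member genes matched RefSeq through their accessions. The members and lists were chosen with earlier results of these data known. Genes given by array were, in each comparison with normoxia and between consecutive groups, the 5 called members with the largest rises and the 5 with the largest falls, plus Eif2s1, the 4 kinases, Eif2b5, Eif4e, Eif4a1, Eif4a2, Eif4g1, the 3 Eif4ebp genes, Eif5a and Eif6. Up to 4 called genes of smallest p came from each pathway list, besides Atf4, Ddit3, Ddit4 and Mtor. Same-numbered arrays were not treated as pairs, since their deviations from the group means correlated at -0.15 to 0.05. Alternatives were other scalings, background correction, filters, probe choices, priors, samples in the fit and a 2-fold threshold. The probe ends and the removal of each array's trend with probe GC content were added after seeing the data.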

Additional observations from a re-analysis of the deposited data

Results flagged for a closer look

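7 members were called in opposite directions against normoxia on different days in limma's test, with Benjamini-Hochberg adjustment over all genes. The difference between the days was called as well. It is larger than either change, with the same SE, so its call largely follows from how these members were picked. The share of all genes that meet the same rule was not computed. The days share the normoxia arrays, and the difference is that between the hypoxia groups. Differences of days 3 and 7 from day 1 lie across the rows of the slide and cannot be told apart from them.

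4 of them were lower on day 1 and higher on day 3. Eif2ak4 (GCN2) differed by 0.34 (SE 0.03, adjusted p = 0.00108) between day 3 and day 1, and by 0.55 (adjusted p = 0.00013) between day 7 and day 1. Eif2s1, the alpha subunit of eIF2, differed by 0.34 (adjusted p = 0.00095) and 0.69 (adjusted p = 6.2e-05). The eIF3 subunit Eif3i differed by 0.37 (adjusted p = 0.000775) and 0.71 (adjusted p = 6.27e-05). Eif3k, another eIF3 subunit, differed by 0.45 (adjusted p = 0.00095) and 0.77 (adjusted p = 9.28e-05).

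Eif3f was lower on days 1 and 3 and higher on day 7, with a difference of 0.29 (adjusted p = 0.00224) between day 7 and day 3 and 0.39 (adjusted p = 0.000297) between day 7 and day 1. Eif4g3 was higher on days 1 and 3 and lower on day 7, with -0.43 (adjusted p = 0.00114) and -0.37 (adjusted p = 0.000513). Eif4e was lower on day 1 and higher on day 7 at its 3′ probe, a difference of 0.66 (adjusted p = 0.00035).

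The day 1 calls of Eif2s1, Eif3i, Eif3k and Eif4g3 were lost without any 1 of the 4 arrays compared, that of Eif2ak4 without the first normoxia array or either day 1 array, that of Eif3f without the first day 1 array, and that of Eif4e without the first normoxia or the first day 1 array. Scaling also ended day 1 calls, those of Eif2s1 and Eif3i with normexp and with the GC trend removed. That of Eif3k was lost with quantile, loess, median centring and the GC trend removed, and those of Eif2ak4 and Eif4g3 with normexp. The day 3 call of Eif2ak4 was lost without any 1 of 3 arrays and with normexp, that of Eif2s1 without the second day 3 array and with quantile, loess and the GC trend removed, that of Eif3i with quantile, loess and normexp, that of Eif3k with quantile and loess, and that of Eif3f without any 1 of 6 arrays and with median centring and the GC trend removed. The day 7 call was lost for Eif3f with quantile, loess and normexp, for Eif4g3 with median centring and for Eif4e with the GC trend removed. The day 3 to day 1 differences of Eif2ak4, Eif2s1, Eif3i and Eif3k and the day 7 to day 3 differences of Eif3f and Eif4g3 held without each array in turn and under each scaling.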

How the results depend on the processing

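With 2 arrays a group, the calls of day 1 were the least stable. Of the calls on day 1, 3 of 9 rises and 3 of 11 falls held without each array in turn and under each of 5 other scalings. On day 3 it was 13 of 23 and 7 of 10, on day 7 19 of 31 and 5 of 12, from day 1 to day 3 13 of 21 and 5 of 8, and from day 3 to day 7 13 of 22 and 7 of 10. Leaving out 1 array gave 3 to 7 higher and 3 to 12 lower on day 1, 19 to 23 and 7 to 10 on day 3, 29 to 31 and 11 to 15 on day 7, 15 to 22 and 5 to 8 from day 1 to day 3, and 17 to 22 and 9 to 11 from day 3 to day 7. Where an array was left out, the lone array was assumed to vary like the other groups.

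Normexp gave 5 higher and 7 lower on day 1, and removal of the GC trend 14 and 6. The shares of all genes were 13.2% and 14.7% with normexp, and 19.9% and 14.8% with the GC trend removed. Median centring gave 35 higher on day 3 and 5 lower on day 7, beside 35.6% and 17.5% of all genes. From day 1 to day 3 it gave 33 higher and 5 lower, beside 38.0% and 17.2%. Cyclic loess gave 13 lower there, beside 23.8%. Fitted on the 2 groups alone, 12 members were higher from day 3 to day 7, beside 13.7% of all genes. At a change of at least 2-fold, 0 members were higher, and 0 were lower except on day 7 against normoxia and against day 1, with 3 lower in each, while limma's test without that threshold gave the counts of the report. With the replicate number as a block, 8 were higher and 10 lower on day 1, 23 and 9 on day 3, 32 and 12 on day 7, 19 and 9 from day 1 to day 3, and 22 and 10 from day 3 to day 7.

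Among the genes given by array, values that changed sign, where the reported or the alternative value was called, were the following. The cause was not tested. Eif2ak2 as the mean of its probes was -0.16 on day 1, -0.52 on day 7 and -0.20 from day 3 to day 7, and 0.14 on day 3 with median centring. Eif2b3 at its 5′ probe was -0.26 from day 1 to day 3. Eif4a2 from day 1 to day 3 was -0.055 with quantile normalization and -0.080 with loess. Eif4e at its 5′ probe was 0.27 on day 1, -0.30 on day 7, -0.24 from day 1 to day 3 and -0.33 from day 3 to day 7. Eif4e3 at its 3′ probe was -0.0068 on day 3. Eif4g3 was 0.089 on day 7 with median centring. Eif5a with quantile and loess normalization was -0.13 and -0.14 on day 7 and -0.13 and -0.15 from day 1 to day 3. Eif6 on day 7 was 0.19 with median centring and 0.12 with the GC trend removed. Of the other members, Eif3h, Eif4g2 and Eif1ax changed sign on day 7 at their 5′ probes, to -0.70, -1.14 and 0.28. Eif2c3 did so on days 3 and 7 with normexp. Signal over background limited Eif2c3, whose arrays differed by 1.26 on day 3.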

Other observations

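The second probe of Eif2ak2, dimmer than the one reported, stood at -4.59 and -4.86 in normoxia and at -5.58 and -6.47 on day 7. The Argonaute gene Eif2c3 was well above background on 4 of the 8 arrays, and on both arrays of a group only in normoxia. Another probe of Eif4g2 was well above background on 1 array and was not tested.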
